A study of Mus musculus with 2 samples.

Results

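Scavenger receptors are surface and lysosomal proteins of macrophages that bind modified lipoproteins, bacteria and debris. The 10 genes described here, Marco, Msr1, Colec12, Olr1, Cd36, Scarb1, Scarb2, Lrp1, Cd93 and Cd68, were taken by symbol from the 16263 gene rows of the deposited tables, and all 10 had a row. They were measured by RNA sequencing in macrophages grown from mouse bone marrow, with 2 libraries in all, 1 from mice with the genotype SIRPalpha-/- (SIRPα-KO) and 1 from wild-type (WT) mice, both labelled C57BL/6. Marrow cells of both genotypes had spent 5 days with the macrophage growth factor M-CSF. Both cultures then received interferon-γ at 20 ng/ml and lipopolysaccharide at 100 ng/ml for 6 h, together with a reagent labelled mCD47.ex, so no unstimulated cells and no cells without mCD47.ex were compared. The cells of 5 mice were pooled per genotype before RNA was extracted. With 1 library per genotype there is no spread between replicates, and no p-value was computed.

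SIRPα, whose ligand is CD47, dampens the signalling of myeloid cells. Scavenger receptors are grouped in classes by structure rather than by ligand. Class A receptors are trimers with a collagen-like stalk, class B receptors span the membrane at both ends, and the class E receptor Olr1 carries a C-type lectin-like domain. Receptors for oxidized low-density lipoprotein (LDL) deliver cholesterol to macrophages and are known for their part in foam cell formation, whereas Marco is best known for binding unopsonized bacteria and particles.

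Sirpa, the targeted gene (gene number 19261), was at 71.5 FPKM in SIRPα-KO and 153.9 FPKM in WT. FPKM counts fragments per kilobase of transcript and adjusts for the size of the library, so levels can be compared between genes. The transcript was thus still present in the SIRPα-KO library at a level 2.15-fold lower, and the allele is not described in the labels. Cd47, the gene of its ligand, was at 188 FPKM in SIRPα-KO and 142 FPKM in WT. Both libraries had a depth of about 11200000 reads, estimated from the step between low values. Macrophage markers were abundant in both, with 7 listed genes summing to 9638 FPKM in SIRPα-KO and 9682 FPKM in WT. Most of each sum was Lyz2, at 7208 FPKM in SIRPα-KO and 7106 FPKM in WT, so the sums say little about the other markers. The pools differed in sex-linked transcripts: Xist was at 0.91 FPKM in SIRPα-KO and 47.5 FPKM in WT, and 4 Y-linked genes lay between 2.52 and 21.4 FPKM in SIRPα-KO and between 0 and 0.05 FPKM in WT. Genotype, the sex of the mice, the pool and the library cannot be told apart.

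Marco and Olr1 differed strongly and in opposite directions, and the other 8 receptors differed less than 2-fold. Marco, a class A receptor that binds bacteria, was at 414.6 FPKM in SIRPα-KO and 65.8 FPKM in WT, a level 6.30-fold higher in SIRPα-KO. Olr1, which encodes the oxidized LDL receptor LOX-1, was at 3.21 FPKM in SIRPα-KO and 130.45 FPKM in WT, a level 40.6-fold lower in SIRPα-KO. In these pooled RNA samples, fewer cells that carry a transcript and less of it per cell cannot be told apart. A gene was called higher or lower where FPKM + 1 differed at least 2-fold between the libraries, among genes that reached 1 FPKM in either library. By this rule 1 receptor was higher and 1 lower, against 3.43% of the 10092 genes kept that were higher and 4.30% that were lower, together 7.73%. The median log2 ratio of the 10 receptors, SIRPα-KO over WT on the log2(FPKM + 1) scale, was -0.06, and that of all genes kept was 0.06. The plot of levels shows the long lines of Marco and Olr1 beside the short ones of the other receptors.

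**Figure D1:**
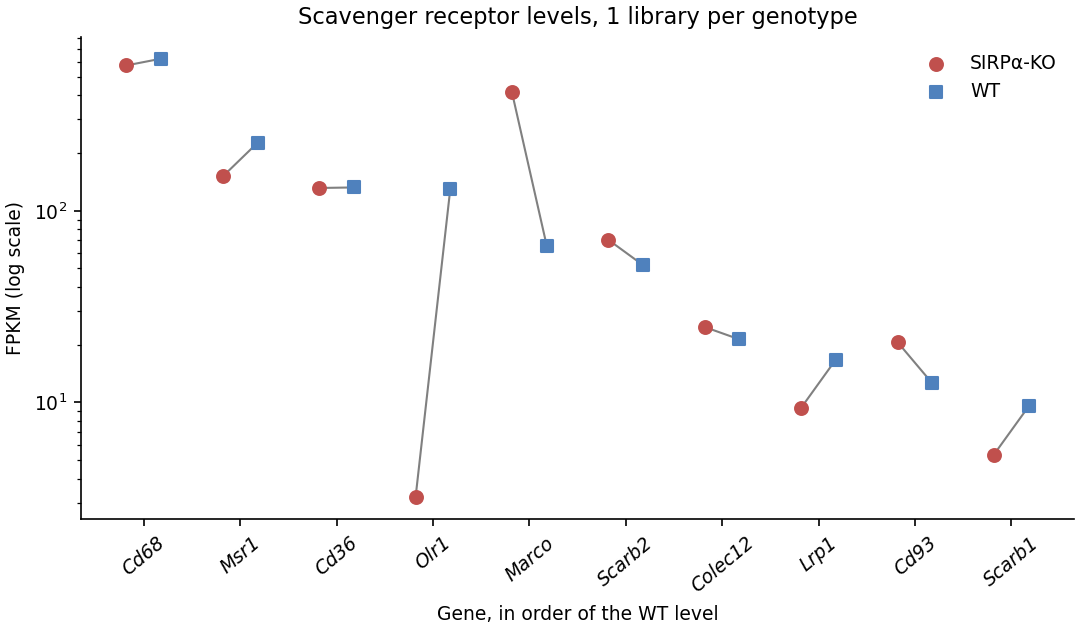
FPKM (log scale) of the 10 scavenger receptor genes in the SIRPα-KO library (red circles) and the WT library (blue squares), 1 library per genotype, joined by a line per gene. Marco stands at 414.6 FPKM in SIRPα-KO and 65.8 FPKM in WT, and Olr1 at 3.21 FPKM in SIRPα-KO and 130.45 FPKM in WT.

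The sequences before the starts of Marco and Olr1 are shown because these genes carry the difference. They are the 250 bases before the start in RefSeq's annotation of GRCm38.p6, a later build than the mm9 named in the submitters' processing notes, and both genes lie on the minus strand. Letters in capitals match 1 of 6 short motifs searched on both strands.
Marco, chr1:120505025-120505274: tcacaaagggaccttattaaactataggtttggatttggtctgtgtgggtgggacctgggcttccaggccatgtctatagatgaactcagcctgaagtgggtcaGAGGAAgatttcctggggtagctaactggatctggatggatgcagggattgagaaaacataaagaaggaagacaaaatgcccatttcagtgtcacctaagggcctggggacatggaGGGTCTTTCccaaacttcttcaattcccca
Olr1, chr6:129507166-129507415: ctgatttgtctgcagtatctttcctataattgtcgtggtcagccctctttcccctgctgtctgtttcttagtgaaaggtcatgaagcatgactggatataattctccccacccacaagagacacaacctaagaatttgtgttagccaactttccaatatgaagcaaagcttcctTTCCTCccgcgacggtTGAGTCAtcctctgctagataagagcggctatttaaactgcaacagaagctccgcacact
The motifs were TTCNNNGAA (bound by STAT dimers), TGANTCA (AP-1), GGGNNTTTC (NF-κB), GAGGAA (a core bound by PU.1), TTGCNNAA (C/EBP) and TGACNNNGC (antioxidant response element core). N stands for any base. The NF-κB letters are a loosened form of the first 9 letters of a site, so a match need not be a full NF-κB site. In Marco the capitals mark GAGGAA from -146 to -141 and GGGTCTTTC from -30 to -22, counted from the start. In Olr1 they mark the reverse complement of GAGGAA from -76 to -71 and TGAGTCA from -60 to -54. No match overlapped another. Of 32851 windows of the same length before RefSeq starts, 3.72% held the NF-κB letters, 6.75% the AP-1 letters and 23.3% the PU.1 core. The other motifs had no match in either window and occurred in 7.02% (STAT), 9.56% (C/EBP) and 10.2% (antioxidant response element) of all windows. Such a match is a description of letters and not of binding.

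Among class A receptors, Marco (gene number 17167, chromosome 1) was the 158th most abundant of the genes kept in SIRPα-KO and the 1111th in WT. Its log2 ratio of 2.64 was exceeded by 30 of the 10092 genes kept. By the estimated depth its values stand for about 8939 reads in SIRPα-KO and 1420 in WT. Msr1 (chromosome 8), the classical receptor for acetylated LDL, was at 151 FPKM in SIRPα-KO and 227 FPKM in WT, a log2 ratio of -0.58 that was not called. Marco was therefore 2.74 times as abundant as Msr1 in SIRPα-KO, and 0.291 times as abundant in WT. Colec12 (chromosome 18), a collagen-stalked receptor with a lectin domain known mainly from endothelium, was at 24.7 FPKM in SIRPα-KO and 21.3 FPKM in WT, a log2 ratio of 0.20. The 3 class A genes summed to 591 FPKM in SIRPα-KO and 314 FPKM in WT, with Marco higher, Msr1 lower and Colec12 close to equal.

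Olr1 (gene number 108078, chromosome 6) had the lowest log2 ratio of all 10092 genes kept, -4.96. With a pseudocount of 0.1 in place of 1, 8 genes lay below it. Its place by level was 7169th in SIRPα-KO and 602nd in WT. By the estimated depth its values stand for about 128 reads in SIRPα-KO and 5219 in WT, so its transcript was scarce but detected in SIRPα-KO.

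Genes next to Olr1 and Marco were not called. Of the 3 nearest genes kept on each side of Olr1 in the GRCm38 order, none of 6 was called, and their log2 ratios lay between -0.68 and 0.45. Clec7a, the β-glucan receptor Dectin next to Olr1, was at 98.9 FPKM in SIRPα-KO and 145 FPKM in WT. Around Marco none of 6 neighbours was called, with log2 ratios between -0.41 and 0.54. The transcripts of Marco shared 0% of their 50-base words with other annotated genes, and those of Olr1 shared 0.165%, with 2 genes. The annotated span of Olr1 overlaps that of 1 other RefSeq gene, which has no row in the tables, and the span of Marco overlaps none. The strand setting of the authors' counting is not known, so reads of overlapping genes cannot be told apart.

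**Figure D2:**
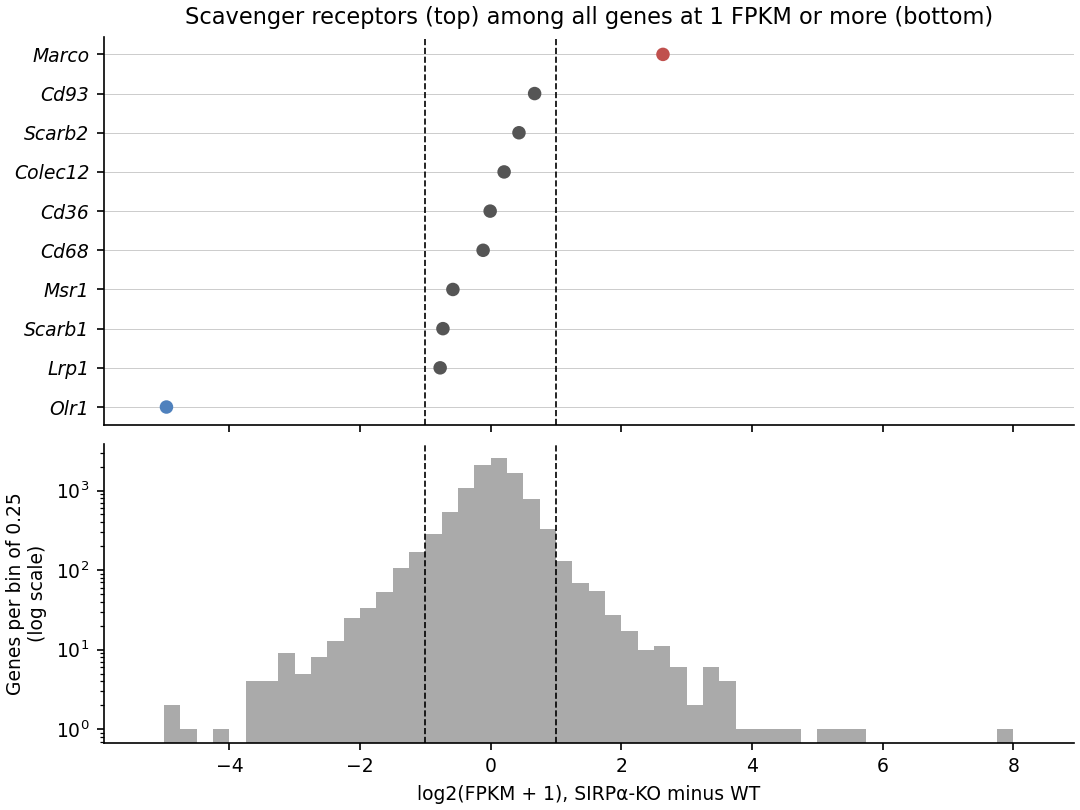
Top: log2(FPKM + 1) in SIRPα-KO minus that in WT for each scavenger receptor gene (red, called higher; blue, called lower; grey, not called). Bottom: the same difference for all 10092 genes kept, as the number of genes per bin of 0.25 on a log scale; dashed lines mark a 2-fold difference. Olr1 lies at the lower end of the whole distribution at -4.96, Marco at 2.64, and the other 8 receptors between -0.77 and 0.67.

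Class B receptors showed smaller differences. Cd36 (chromosome 5), which takes up oxidized LDL and long-chain fatty acids, was at 131.6 FPKM in SIRPα-KO and 132 FPKM in WT. Its log2 ratio of -0.01 lay near the middle of all genes, and it turned to 0.03 with both libraries scaled to the same sum. Cd36 and Olr1, which both bind oxidized LDL, stood far apart in SIRPα-KO, where Cd36 was at 41.0 times the level of Olr1, and close together in WT, where it was at 1.02 times that level. Scarb1 (chromosome 5), the receptor for high-density lipoprotein that takes up cholesteryl esters, was at 5.34 FPKM in SIRPα-KO and 9.53 FPKM in WT, a log2 ratio of -0.73. Those values stand for about 146 reads in SIRPα-KO and 261 in WT. Scarb2 (chromosome 5), a protein of the lysosomal membrane, was at 70.5 FPKM in SIRPα-KO and 52.0 FPKM in WT, a log2 ratio of 0.43. No class B receptor was called, and their sum was 207 FPKM in SIRPα-KO and 194 FPKM in WT.

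The remaining receptors were not called either. Lrp1 (chromosome 10), a large endocytic receptor that clears apolipoprotein E remnants and protease complexes, was at 9.37 FPKM in SIRPα-KO and 16.7 FPKM in WT. Its log2 ratio of -0.77 was the lowest among the 8 receptors not called. Cd93 (chromosome 2, which also carries Sirpa), a lectin-like membrane protein linked to the clearance of dying cells, stood at 20.6 FPKM in SIRPα-KO and 12.6 FPKM in WT. At 0.67 its log2 ratio was the highest among those not called. Cd68 (chromosome 11), a lysosomal glycoprotein used as a macrophage marker, was at 574 FPKM in SIRPα-KO and 623 FPKM in WT, a log2 ratio of -0.12. It was the 104th most abundant gene kept in SIRPα-KO and the 100th in WT. With a limit of 1.5-fold in place of 2-fold, Cd93 was added to the higher genes and Lrp1 and Scarb1 to the lower ones.

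The order of levels changed mainly through Marco and Olr1. In SIRPα-KO it ran Cd68, Marco, Msr1, Cd36, Scarb2, Colec12, Cd93, Lrp1, Scarb1 and Olr1, from high to low. In WT it ran Cd68, Msr1, Cd36, Olr1, Marco, Scarb2, Colec12, Lrp1, Cd93 and Scarb1. Without replicates it cannot be said which neighbours in these orders differ beyond their spread, and Cd36 and Olr1 in WT were almost equal. The 10 genes summed to 1405 FPKM in SIRPα-KO and 1290 FPKM in WT, which is 0.324% of the FPKM of all genes in SIRPα-KO and 0.290% in WT. Marco made up 29.5% of that sum in SIRPα-KO and 5.10% in WT, Olr1 0.228% in SIRPα-KO and 10.1% in WT, and Cd68 40.8% in SIRPα-KO and 48.3% in WT. The summed level therefore differed little while its make-up differed, as the stacked shares show. Without Marco and Olr1, the other 8 genes summed to 987 FPKM in SIRPα-KO and 1094 FPKM in WT.

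**Figure D3:**
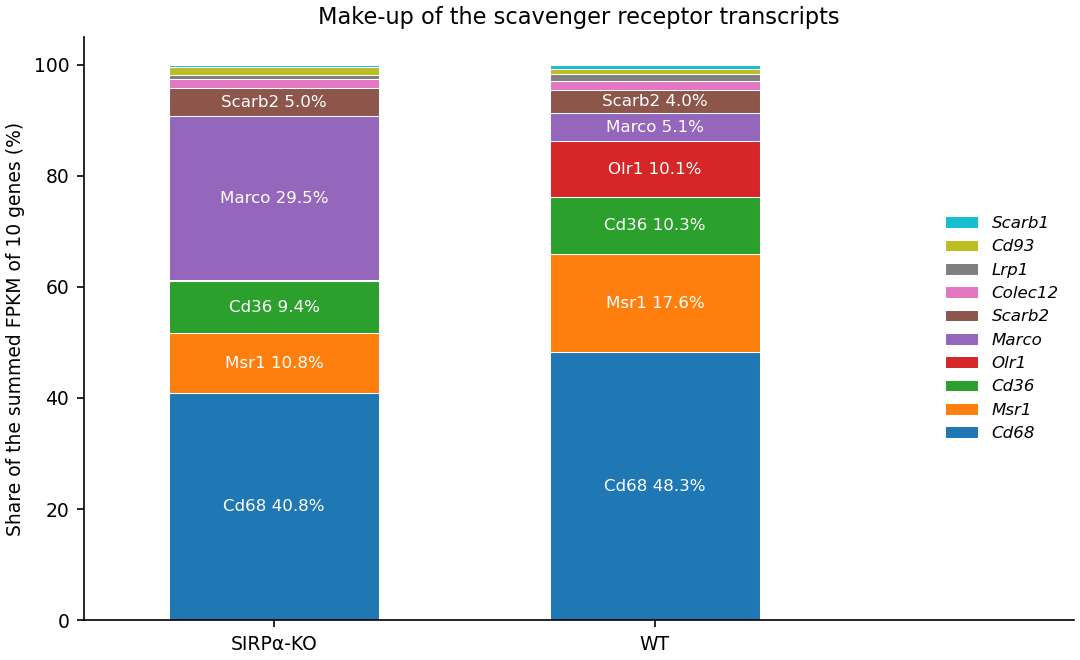
Share of the summed FPKM of the 10 scavenger receptor genes taken by each gene, in percent, in the SIRPα-KO library (left) and the WT library (right). Marco takes 29.5% in SIRPα-KO and 5.10% in WT, and Olr1 takes 0.228% in SIRPα-KO and 10.1% in WT.

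Other scavenger receptor genes showed no called difference. Of 15 measured, 7 passed the minimum of 1 FPKM, 0 were higher and 0 lower, and their median log2 ratio was -0.20. Counts for this and the following lists stand beside 3.43% of all genes kept that were higher and 4.30% that were lower. The most abundant of them by the mean of both libraries were Cxcl16 and Clec7a, the neighbour of Olr1 whose values are given above. Cxcl16, which serves as a receptor for oxidized lipoprotein in its membrane-bound form, was at 309 FPKM in SIRPα-KO and 401 FPKM in WT. The extremes of this list, named after their values were seen, were Stab1 (log2 ratio 0.75), a receptor that clears modified proteins, and Cd5l (-0.74), a secreted macrophage protein. Of 6 measured relatives of Cd68 and Cd93, 2 passed the minimum and 0 were called. These were the lysosomal proteins Lamp1, at 681 FPKM in SIRPα-KO and 641 FPKM in WT, and Lamp2, at 320 FPKM in SIRPα-KO and 345 FPKM in WT.

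The list of relatives of Lrp1 also held its chaperone Lrpap1. Of its 11 measured genes, 9 passed the minimum, 0 were higher and 1 was lower, and the median log2 ratio was -0.33. The lower gene was Lrp12, at 2.5 FPKM in SIRPα-KO and 10.8 FPKM in WT. Lrpap1, a chaperone that keeps ligands off Lrp1 during its synthesis, was named after its values were seen. It was at 16.9 FPKM in SIRPα-KO and 33.4 FPKM in WT, a log2 ratio of -0.94.

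Genes that handle the lipid brought in by these receptors were lower or close to equal. All 16 passed the minimum, 0 were higher and 2 lower, the median log2 ratio was -0.36 and the highest was -0.04. Abca1, which exports cholesterol from macrophages, was at 2.1 FPKM in SIRPα-KO and 27.9 FPKM in WT. Lipa, the lysosomal lipase that splits cholesteryl esters, was at 60.6 FPKM in SIRPα-KO and 149 FPKM in WT.

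Signalling partners and adaptors of scavenger receptors went both ways, with 1 of 14 genes kept higher and 2 lower and a median log2 ratio of 0.27. Tlr2, the receptor for bacterial lipoproteins that works together with Marco and Cd36, was at 4.67 FPKM in SIRPα-KO and 43.1 FPKM in WT. Vav1 and Vav3 encode exchange factors for small GTPases. Vav1 was at 40.3 FPKM in SIRPα-KO and 85.55 FPKM in WT, just short of the 2-fold limit with a pseudocount of 5, and Vav3 was at 31.0 FPKM in SIRPα-KO and 6.23 FPKM in WT.

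Of 15 ligands and shedding enzymes kept, 0 were higher and 2 lower, and the median log2 ratio was -0.47. Both lower genes are known in connection with Lrp1. Plau, the urokinase protease that Lrp1 clears in complex with its inhibitor, was at 5.09 FPKM in SIRPα-KO and 29.97 FPKM in WT. Pdgfb, a growth factor whose receptor associates with Lrp1, was at 1.12 FPKM in SIRPα-KO and 13.6 FPKM in WT.

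Among 14 transcription factors known to act on scavenger receptor genes, 1 was higher and 1 lower, and 0 of either with a limit of 3-fold. Over all genes kept, 3.43% were higher and 4.30% lower at 2-fold. Their median log2 ratio was 0.01, and it turned to -0.06 with scaling by the median ratio or the trimmed mean and fell just below 0 with a minimum of 5 FPKM. Tfec, a factor of the MiT family found in macrophages, was at 21.4 FPKM in SIRPα-KO and 7.51 FPKM in WT. Cebpb, a factor of inflammatory gene expression, was at 41.7 FPKM in SIRPα-KO and 126.2 FPKM in WT.

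**Figure D4:**
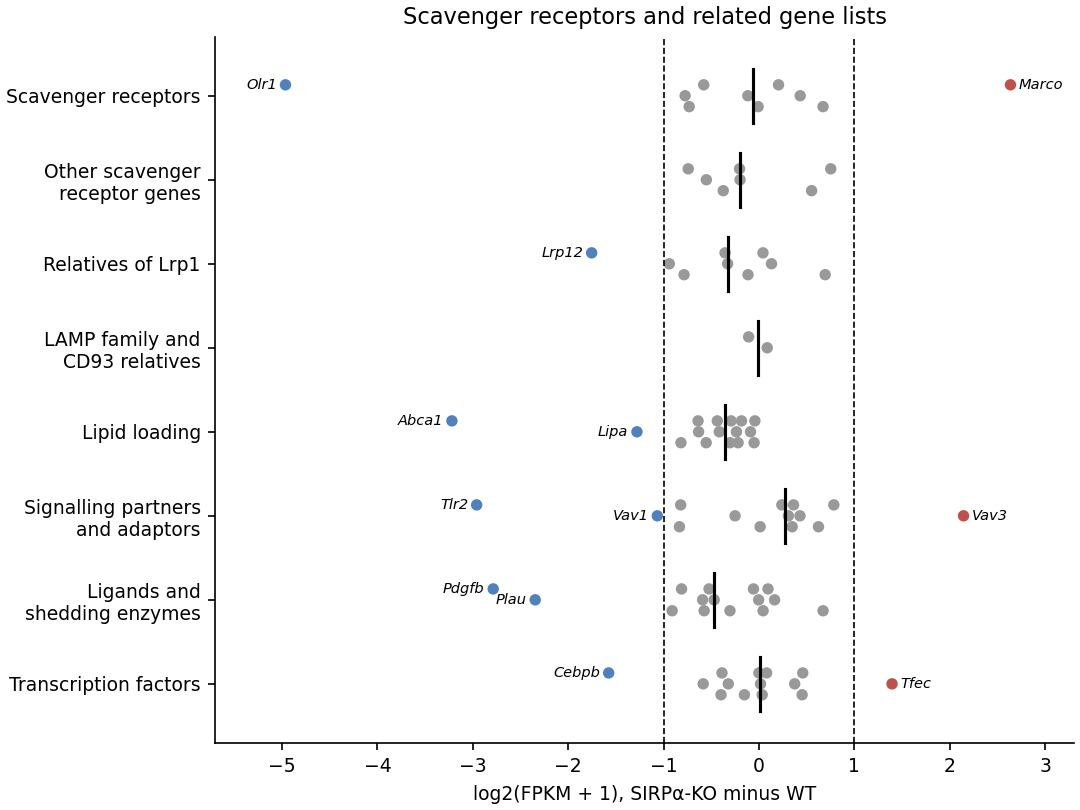
log2(FPKM + 1) in SIRPα-KO minus that in WT for the genes kept of the scavenger receptors and 7 related lists, with 1 point per gene (red, called higher; blue, called lower; grey, not called), the median of each list as a black bar and dashed lines at a 2-fold difference. Most genes of every list lie between the dashed lines, and Olr1 at -4.96 lies lowest of all genes drawn.

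Markers of other cells differed in some lists and had no gene called in others. Of 8 neutrophil and granulocyte precursor genes measured, 5 were lower and 0 higher, against 4.30% of all genes kept that were lower and 3.43% that were higher. With a limit of 3-fold, 0 were lower. The 8 genes summed to 194 FPKM in SIRPα-KO and 423 FPKM in WT, mostly through S100a8, S100a9 and Ngp. Only Mpo went the other way, at 3.34 FPKM in SIRPα-KO and 2.38 FPKM in WT. Platelet and erythroid markers summed to 178 FPKM in SIRPα-KO and 55.1 FPKM in WT over 7 genes, with 1 higher, the platelet chemokine Pf4 (148 FPKM in SIRPα-KO, 37.3 FPKM in WT), and with the erythroid factor Klf1 listed at 0 in both. Of 8 dendritic cell genes 5 passed the minimum, 2 were higher, Ccr7 and Dpp4, and 0 lower, with a median log2 ratio of -0.01. The sums were 37 FPKM in SIRPα-KO and 18.7 FPKM in WT, with Cd209a listed at 0 in SIRPα-KO. Ccr7, at 23.8 FPKM in SIRPα-KO and 6.93 FPKM in WT, made up most of the SIRPα-KO sum. Siglech went the other way, at 1.11 FPKM in SIRPα-KO and 3.03 FPKM in WT, and Xcr1 and Clec9a were close to equal. Endothelial and stromal markers, of cells that can express Cd93 and Colec12, summed to 30.1 FPKM in SIRPα-KO and 23.4 FPKM in WT over 8 genes, with 0 called. Kdr, at 19.66 FPKM in SIRPα-KO and 12.27 FPKM in WT, made up most of both sums. With a pseudocount of 0.1, 2 of these markers were higher. Osteoclast markers summed to 21.8 FPKM in SIRPα-KO and 28.1 FPKM in WT over 5 genes. Most of each sum was Acp5, at 20.26 FPKM in SIRPα-KO and 23.55 FPKM in WT. Each of the other osteoclast markers had a lower value in SIRPα-KO, at 2.23 FPKM or less in either library. B, T and NK cell markers summed to 1.61 FPKM in SIRPα-KO and 3.13 FPKM in WT over 6 genes. In either list 0 were called with the pseudocount of 1. With one of 0.1, 2 osteoclast markers and 1 B, T and NK cell marker were lower. The adipocyte list had 1 row, Adipor2, at 12.8 FPKM in SIRPα-KO and 11.7 FPKM in WT. Of the 7 macrophage markers 1 was lower, Csf1r, the receptor for M-CSF, at 109.8 FPKM in SIRPα-KO and 248 FPKM in WT. The part of these cell types in the levels of Marco and Olr1 was not tested.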

How the data were processed

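RNA sequencing values of 2 libraries were used, each from the mixed cells of 5 mice, with libraries made by BGI protocols per the labels' text. Per library the authors deposited 1 table with 1 value per gene, taken here to be FPKM. The tables name no unit, so it was inferred: 62.6% of 1527 low SIRPα-KO values and 62.5% of 1527 low WT values came to within 0.15 of a whole read count once multiplied by transcript length (GENCODE release M21), against 31.2% and 31.1% with lengths shuffled. The step gave a depth of about 11200000 reads per library. Too few values came out as whole reads for a count test. The submitters' processing notes name mm9, R 3.3.3 and DESeq2 without a role. The aligner, counter and strand setting, not given in the sources used here, also affect the values. Because FPKM is relative to library size, a shift in abundant genes moves all others.

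Ratios of SIRPα-KO to WT were computed over all 16263 rows as differences of log2(FPKM + 1), which makes the differences of low genes look smaller, with Python 3.11.15 and pandas 2.3.3. Genes that reached 1 FPKM in either library were kept, and a 2-fold difference was the limit for a call. The rule for calls was checked on simulated data, which gives no error rate for these libraries. Alternatives were other pseudocounts, minimums, scalings and fold limits. All 10 receptors are named. From each related list, called genes were named, or the 2 most abundant where none was called (Cxcl16 and Clec7a among other scavenger receptor genes). Stab1, Cd5l and Lrpap1 fall outside this rule and were named after their values were seen. Markers were given as sums, with some markers named. Some list genes are not reported here. The members and lists were chosen with earlier results of these data known. Starts and promoter sequences came from RefSeq (GRCm38.p6), whose promoter table held 6 of the 10 genes. The 6 motifs were chosen after the values were seen, and the NF-κB letters were shortened to 9 after a first search had matched the same place in Marco.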

Additional observations from a re-analysis of the deposited data

How the results depend on the processing

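Under all 7 other pseudocounts, minimums and scalings, and with a limit of 3-fold, Marco stayed the 1 receptor called higher and Olr1 the 1 called lower. The log2 ratio of Marco ranged from 2.57 to 2.67 and that of Olr1 from -5.30 to -4.04. Only Cd36 changed sign among the 10 receptors, between -0.08 and 0.03. With a limit of 1.5-fold, 2 receptors were higher and 3 lower. Over all genes, 1103 were then higher and 1032 lower, and 130 and 140 with a limit of 3-fold, against 346 and 434 with 2-fold. A pseudocount of 0.1 gave 589 higher and 676 lower, and one of 5 gave 147 and 187, because the pseudocount damps the ratios of low genes. Counted from the top, Marco's ratio was 31st, or 90th with a pseudocount of 0.1 and 9th with one of 5. No paired analysis was possible because each genotype has 1 library, and no library could be left out. Of 21 other genes (Sirpa, Cd47 and the called genes of the lists), Camp, Dpp4, Elane, S100a9 and Vav1 fell short of 2-fold under 1 alternative each. Dpp4 and Elane were also dropped with a minimum of 5 FPKM, which neither reached in either library. That minimum left 4 neutrophil markers lower in place of 5, and 1 dendritic cell marker higher in place of 2. With a pseudocount of 5, 3 neutrophil markers were lower in place of 5, and 1 dendritic cell marker was higher in place of 2. One of 0.1 gave more marker calls. Then 6 neutrophil markers, 2 osteoclast markers, 1 dendritic cell marker and 1 B, T and NK cell marker were lower, and 2 endothelial and stromal markers were higher. With a limit of 3-fold, 0 neutrophil markers and 0 macrophage markers were lower, and 1 dendritic cell marker was higher. Under the same limit 0 transcription factors were higher and 0 lower. The lower genes were then 1 in place of 2 among lipid-handling genes and 1 in place of 2 among signalling partners. Scaling by the median ratio or the trimmed mean gave 2 lower genes in place of 1 in the list of relatives of Lrp1, which also holds its chaperone Lrpap1. With 1 library of about 11200000 reads per genotype, the lowest receptor value, that of Olr1 in SIRPα-KO, stands for about 128 reads, and variation between mice or cultures was not measured.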
